A study of Mus musculus with 3 samples.

Results

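The regions described here are peaks of 5-hydroxymethylcytosine (5hmC) in the mouse genome that lie in non-coding genes and away from protein-coding ones. A peak belonged to the set when its midpoint lay in the span of a RefSeq gene that is neither protein-coding nor a pseudogene, and in no protein-coding gene span nor within 5 kb of one. Of 208468 distinct peaks, 207188 lay on the 19 autosomes, and 12194 of these met the rule (5.89% of the autosomal peaks, exact binomial interval 5.78 to 5.99%). The series holds 3 samples of genomic DNA from bone marrow cells. One is of normal marrow and 2 are of NIDF-AML, an acute myeloid leukaemia that was induced by FLT3-ITD and NPMc with mutant IDH2 (R140Q) and mutant DNMT3A (R882H) together. The sources used here give neither the age and strain of the mice nor how the alleles were introduced. In all samples 5hmC was tagged with an azide-bearing glucose, coupled to biotin, captured and sequenced.

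Peak lists of the 2 leukaemia samples were analysed, and no list of normal marrow was analysed here. Line by line the pair did not differ (223267 lines each), so they count as 1 list with no replicate. In both file headers the treatment is index 4, and the control is index 5 or index 6. The sources used here do not tie index 4 to a sample, so every value belongs to the index 4 library, and leukaemia was not compared with normal marrow. A line of the list gives a position and no height, so a peak is present or not listed, and read depth is unknown. The 95% intervals cover counting error alone and assume that peaks are independent. Peaks lie close together, so these intervals are too narrow. Without expression data the labelled tissue could not be checked against cell type markers.

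5hmC is made from 5-methylcytosine by the TET dioxygenases, mostly at CG dinucleotides, and marks the bodies and flanks of active genes and enhancers in many tissues. Long non-coding RNAs (lncRNAs) are transcripts without a protein product that are often spliced and polyadenylated like messenger RNAs. Some act on neighbouring genes or in chromatin, and some carry microRNA hairpins in an intron or exon and are then called host genes. A microRNA is cut from such a hairpin and pairs with target messenger RNAs mainly through its seed, bases 2 to 8.

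Peaks lay within a few microRNA genes themselves, and these hairpins are shown because a listed peak and the functional RNA overlap there. Of 262 eligible microRNA genes, meaning those with sequence more than 5 kb from any coding gene, 7 held a peak midpoint (2.67%). The 7 are Mir181b-1, Mir1969, Mir341, Mir6417, Mir666, Mir8096 and Mirlet7c-2, and they were named after their values were seen. Sequences are from RefSeq on GRCm38.p6, 5′ to 3′, and capitals mark the bases under the peak. Peak positions past about 67 Mb are rounded to multiples of 8 bp, so the edges of the capitals are coarse. Peaks were called from fragments averaging 200 bp in windows of 250 bp, longer than the hairpins. The capitals therefore show the listed interval and do not place the mark on single bases.
Mir181b-1, chr1:137966639-137966718, plus strand: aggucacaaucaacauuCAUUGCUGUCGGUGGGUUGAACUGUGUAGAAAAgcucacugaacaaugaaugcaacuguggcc
Mirlet7c-2, chr15:85706603-85706697, plus strand: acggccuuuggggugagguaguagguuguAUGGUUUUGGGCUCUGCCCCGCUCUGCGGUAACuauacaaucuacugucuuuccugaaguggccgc
Mir341, chr12:109611500-109611595, plus strand: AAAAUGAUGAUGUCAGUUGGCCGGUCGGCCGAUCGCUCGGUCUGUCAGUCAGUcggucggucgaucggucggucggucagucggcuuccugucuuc

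Mir181b-1 encodes miR-181b, a microRNA of lymphocyte development, and its peak spans 33 bases of the hairpin, from chr1:137966656 to 137966688. The hairpin holds 1 CG, and that CG lies among the capitals. Mirlet7c-2 encodes let-7c, of the let-7 family that restrains growth-promoting genes, and its peak also covers 33 bases, mainly between the mature arms. Its hairpin holds 4 CG dinucleotides. Mir341 lies in the imprinted lncRNA Rian, and its hairpin of 96 bases holds 12 CG dinucleotides. The peak covers 53 bases of it. Over the 6 hairpins with both a peak and a sequence entry the median was 4 CG dinucleotides, against 1 over the 223 eligible hairpins with an entry. These are counts per hairpin, and CG per base was not compared. The 6 are 80 to 127 bases long, against a median span of 83 bp over all eligible microRNA genes. The 6 ranged from 0 to 12: Mir1969 holds 0 CG, although its peak covers 51 bases of the hairpin, Mir6417 holds 5 and Mir8096 4. Per length, eligible microRNA genes held 318 peaks per Mb (exact Poisson interval 128.03 to 656), the first 1 kb around them 107 per Mb (78.6 to 143) and the sequence 10 to 20 kb away 80.8 per Mb (70.9 to 91.6). The value inside the genes rests on 7 peaks in 0.0220 Mb.

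In the other classes of short RNA genes the values inside the gene rest on 1 to 5 peaks. Small nucleolar RNA genes, which guide modification of ribosomal RNA, held 57.0 peaks per Mb inside the gene (18.5 to 133, 5 peaks) and 43.2 per Mb within 1 kb (33.1 to 55.4). Small nuclear RNA genes held 1 peak inside, or 17.2 per Mb (0.436 to 96.0), and 60.3 per Mb within 1 kb (46.1 to 77.5). Transfer RNA genes also held 1 inside, or 50.5 per Mb (1.28 to 281), and 126 per Mb within 1 kb (93.9 to 165), which overlaps the interval around microRNA genes. For these 3 classes the interval inside the gene holds the value within 1 kb, so no difference was detectable.

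Nearly all of the peaks lay in lncRNA genes. That class held 11868 of the 12194 (97.3%), and miscellaneous RNA genes held 119. The lncRNA share is close to their share of the sequence. Eligible lncRNA sequence sums to 163 Mb, with overlaps between genes counted more than once, beside 167 Mb for all non-coding genes. Its density was 72.6 peaks per Mb, against 73.0 for the whole set. The gene table records 7 antigen receptor loci (Igh, Igk, Igl, Tcra, Tcrb, Tcrd and Tcrg) and their segments as not protein-coding, although rearranged segments encode immunoglobulins and T cell receptors. They met the rule as written and held 215 peaks (1.76%), so the set is not strictly non-coding. Of the peaks, 11487 lay in 1 non-coding gene and 707 in 2 or 3. Most genes are predicted models, with a symbol of the form Gm and a number, LOC and a number, or ending in Rik. They made up 87.2% of the eligible genes and 94.8% of those with a peak. Length and class were not held equal here. The other genes include short ones such as receptor segments and named microRNA genes. Of all eligible genes with under 1 kb of eligible sequence, 3.31% held a peak.

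Of 16752 autosomal non-coding genes, 10703 were eligible, and 3387 of these held at least 1 peak (31.6%). Among lncRNA genes the share was 39.9% (3311 of 8290). For scale, 69.4% of autosomal protein-coding genes held a peak midpoint in their span. That share takes the whole span, while non-coding genes count only their eligible sequence, and length was not held equal. Genes with a peak held a median of 2. At least 5 peaks were found in 782 genes, at least 10 in 268, at least 20 in 68 and at least 50 in 9. The 20 genes with the most held 1075 peaks, 8.82% of all (exact binomial interval 8.32 to 9.33%). Without the predicted models 960 peaks were left, of which the 20 genes with the most held 66.9%, and 12.9% of the eligible genes held a peak. Gene length and class were not held equal in that share either.

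Longer lncRNA genes had a peak more often, though the share levelled off. It was 13.3% in genes with under 1 kb of eligible sequence (interval 9.94 to 17.2%, 362 genes) and 30.3% at 1 to 5 kb (28.5 to 32.2%). At 5 to 20 kb it was 43.7% (42.0 to 45.4%), and at 20 to 50 kb 48.3% (45.7 to 51.0%). From 50 kb on, the intervals overlapped, with 49.4% at 50 to 100 kb and 56.4% above 200 kb (42.3 to 69.7%, 55 genes). Of those 55 genes, 31 had a peak.

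**Figure D1:**
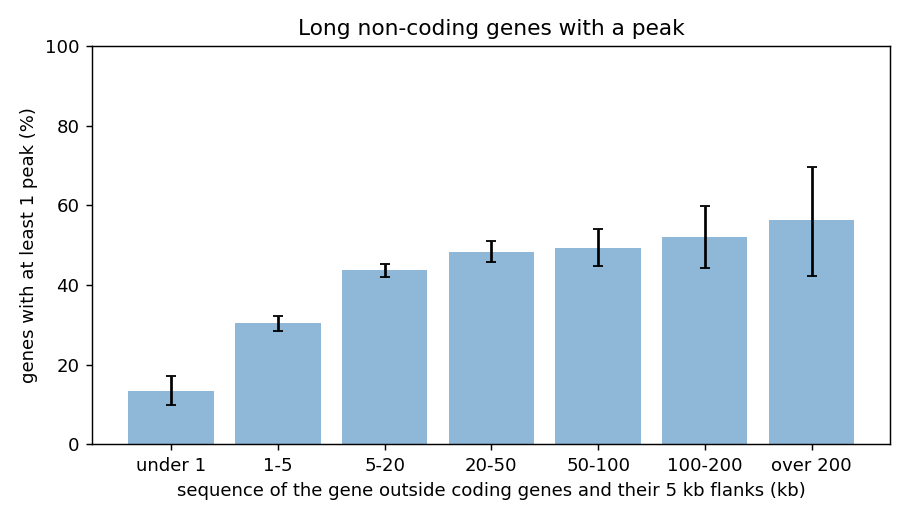
Share of eligible lncRNA genes with at least 1 peak (vertical axis, %) by the length of the gene that lies outside coding genes and their 5 kb flanks (horizontal axis, kb); bars are shares and whiskers exact 95% binomial intervals. The share rose from 13.3% under 1 kb to 48.3% at 20 to 50 kb and was 56.4% above 200 kb.

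Non-coding genes were denser in peaks than the remaining sequence far from coding genes, but whether they were denser than sequence close to them depended on the reference. The 167 Mb of non-coding gene sequence held 73.0 peaks per Mb (exact Poisson interval 71.7 to 74.3). The reference, 1114 Mb more than 5 kb from coding genes and in no annotated non-coding gene, held 41162 peaks or 37.0 per Mb (36.6 to 37.3), a ratio of 1.97 (exact interval 1.935 to 2.02). Reference sequence within 20 kb of a non-coding gene held 81.6 per Mb (80.4 to 82.8), which puts non-coding genes at 0.894 of it (0.874 to 0.915), the opposite direction. Reference within 50 kb held 67.3 per Mb, a ratio of 1.08 (1.06 to 1.11). These local references were chosen after the data were seen. Protein-coding gene spans held 137 per Mb, and non-coding genes stood at 0.534 of that (0.525 to 0.545).

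Density fell with distance from coding genes both inside and outside non-coding genes. At 5 to 10 kb from a coding gene, non-coding genes held 135 peaks per Mb (127.9 to 142) and the reference 93.6 (91.5 to 95.6), a ratio of 1.44 (1.36 to 1.52). At 20 to 50 kb the densities of 110 and 63.4 per Mb differed 1.74 times (1.67 to 1.81). At 100 to 200 kb they were 61.7 and 23.3, a ratio of 2.64 (2.497 to 2.80). Over 500 kb away, non-coding genes held 134 peaks in 17.96 Mb, or 7.46 per Mb (6.25 to 8.84), and the reference 2.38 (2.17 to 2.62), a ratio of 3.13 (2.56 to 3.81). Both classes became sparse, and the reference more so. Weighted over the distance classes, the ratio was 1.85 (1.82 to 1.88), and with the reference kept within 20 kb of a non-coding gene it was 1.05 (1.03 to 1.06) and within 50 kb 1.22 (1.20 to 1.25).

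**Figure D2:**
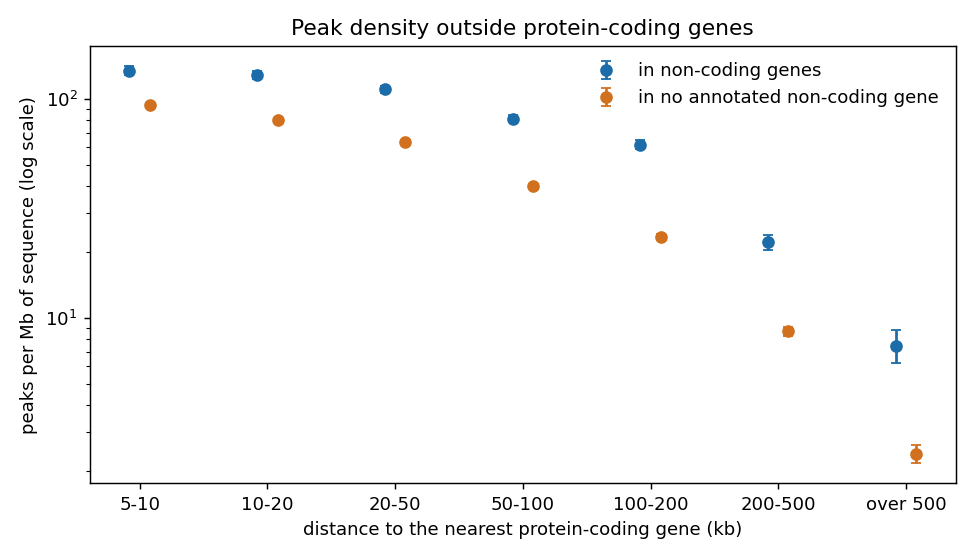
Peaks per Mb (vertical axis, log scale) by distance to the nearest protein-coding gene (horizontal axis, kb) for sequence in non-coding genes (blue) and in no annotated non-coding gene (orange); whiskers are exact 95% Poisson intervals. Non-coding genes go from 135 per Mb at 5 to 10 kb to 7.46 over 500 kb, and the other sequence from 93.6 to 2.38.

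The ratio against the whole reference was above 1 on each of the 19 autosomes, with a median of 1.90. It was lowest on chromosome 4, at 1.65 (1.51 to 1.81), and highest on chromosome 17, at 3.04 (2.80 to 3.31). Chromosome 17 also had the densest non-coding genes, with 742 peaks in 4.71 Mb or 158 per Mb. Chromosome 14 had the sparsest, at 42.6 per Mb. Without chromosome 2, which held the most peaks of the set (1072), the pooled ratio was 1.95.

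**Figure D3:**
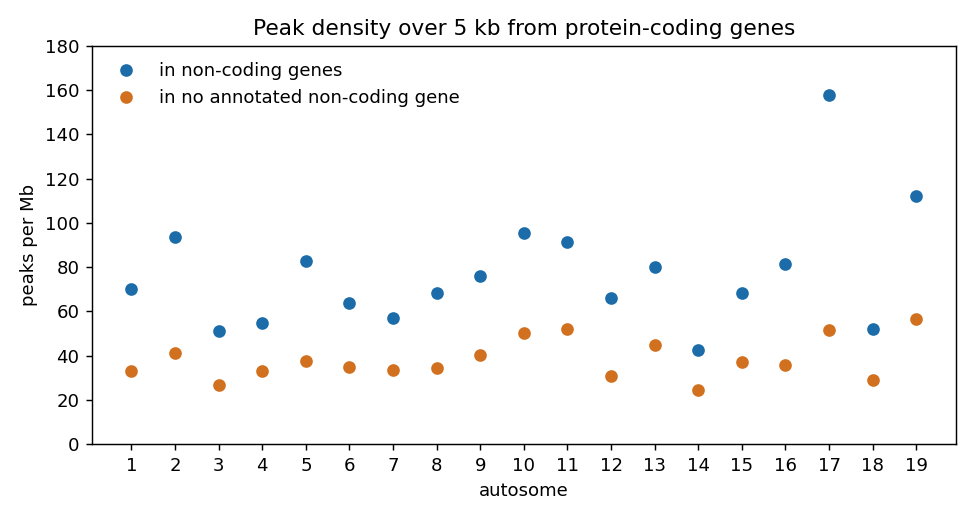
Peaks per Mb (vertical axis) on each autosome (horizontal axis) for sequence in non-coding genes (blue) and for other sequence more than 5 kb from coding genes and in no annotated non-coding gene (orange). The blue points lie above the orange ones on all 19 autosomes, by 1.65 times on chromosome 4 to 3.04 times on chromosome 17.

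Within non-coding genes, peaks gathered toward the gene ends, and most of all at the start. Sequence within 5 kb of an end held 116 peaks per Mb and deeper sequence 55.2, a ratio of 2.10 (2.02 to 2.17). Genes are of different lengths, so only long ones contribute deep sequence. Strand was known from the RefSeq promoter table for 6111 eligible lncRNA genes, and 5107 starts lay more than 5 kb from coding genes. The first 500 bp inside the start held 201 peaks per Mb (184 to 220), 5.45 times the mean of the whole reference. The 500 bp before the start held 166 (150 to 184). At 1 to 2.5 kb the values were 124 inside and 114 outside. At 10 to 20 kb they were 72.2 inside (68.3 to 76.2) and 89.0 outside (85.9 to 92.1), so the order of inside and outside was turned around away from the start.

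At the 3′ ends of these genes the rise was smaller. The last 500 bp of 5471 genes held 139 peaks per Mb (125 to 154), and the next 500 bp past the end held 97.0 (85.0 to 110). At 5 to 10 kb the values were 95.1 inside (90.3 to 100.1) and 88.0 outside (84.0 to 92.1). The intervals of the start and the end do not overlap in the 500 bp inside the gene. Neighbouring genes share bases in these sums, and no test was made.

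**Figure D4:**
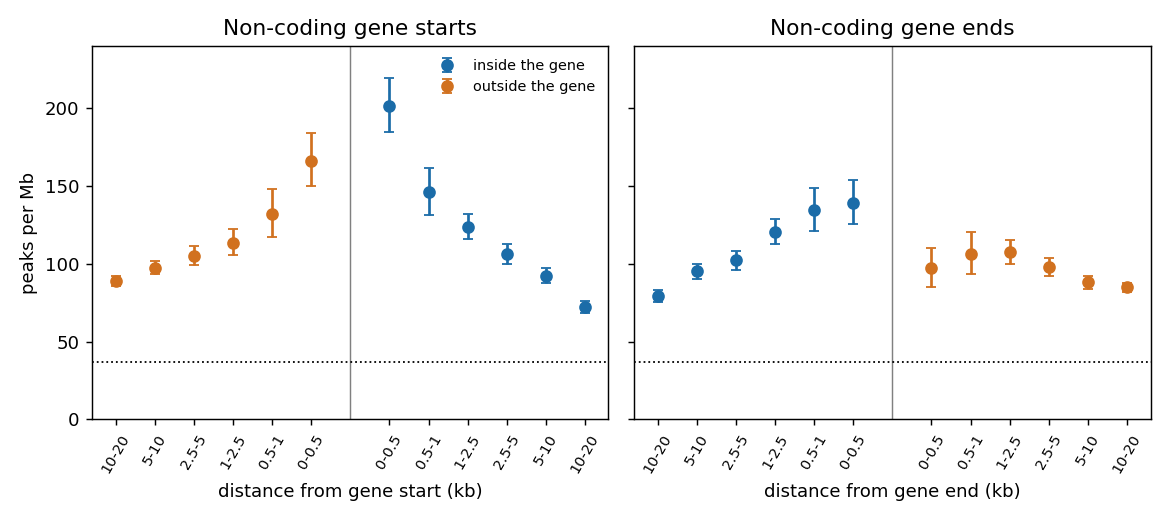
Peaks per Mb (vertical axis) by distance (horizontal axis, kb) from the starts (left) and ends (right) of non-coding genes, inside the gene (blue) and outside in no non-coding gene (orange); whiskers are exact 95% Poisson intervals and the dotted line is the mean of the whole reference, 37.0 per Mb. The highest point, 201 per Mb, is the first 500 bp inside the start, against 139 in the last 500 bp of the gene.

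At the starts of lncRNA genes, windows with a peak held more CG than windows without one. In the RefSeq promoter windows, 250 bases before to 50 after the start, the motif CG (the same on both strands) was counted for these 5107 genes. Windows that overlapped a peak numbered 371 of 5107 (7.26%) and held a median of 6 CG (quartiles 4 and 8). Windows without one held 4 where the gene held a peak elsewhere (1731 genes) and 3 where it held none (3005 genes). Windows with 0 or 1 CG overlapped a peak in 0.683% of 1172 genes (0.295 to 1.34%), those with 2 to 4 in 5.29% (4.39 to 6.31%) and those with 5 to 9 in 15.8% (13.8 to 17.8%). With 10 or more the share was 9.11% (6.53 to 12.3%), so it was highest at intermediate CG content. The share with a peak within 2.5 kb of the start showed no such drop, at 20.5%, 33.2%, 44.1% and 46.3% over the same classes. Of all 32851 windows in the table, 94.6% hold at least 1 CG, and 10052 protein-coding windows had a median of 10. The order was the other way there: the 408 protein-coding windows with a peak (4.06%) had a median of 8 CG, and 40.0% (39.95%) of them held 10 or more CG against 51.5% of all 10052. No test was made.

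Among the genes named below for their number or density of peaks, 14 of 25 had a promoter entry at their outer start and 4 had a peak in that window. A pair of them is shown because the peak lies over or next to the transcription start, and capitals mark CG. Both are RefSeq sequence on GRCm38.p6, 5′ to 3′ along the gene.
Gm46730, chr2:6256588-6256887, plus strand: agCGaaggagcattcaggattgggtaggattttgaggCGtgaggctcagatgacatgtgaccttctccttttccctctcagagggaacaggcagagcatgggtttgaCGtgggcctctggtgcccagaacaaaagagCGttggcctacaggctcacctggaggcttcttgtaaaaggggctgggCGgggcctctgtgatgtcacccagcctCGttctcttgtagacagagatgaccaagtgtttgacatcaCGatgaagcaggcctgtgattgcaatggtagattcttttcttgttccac
Gm42031, chr8:85131765-85132064, minus strand: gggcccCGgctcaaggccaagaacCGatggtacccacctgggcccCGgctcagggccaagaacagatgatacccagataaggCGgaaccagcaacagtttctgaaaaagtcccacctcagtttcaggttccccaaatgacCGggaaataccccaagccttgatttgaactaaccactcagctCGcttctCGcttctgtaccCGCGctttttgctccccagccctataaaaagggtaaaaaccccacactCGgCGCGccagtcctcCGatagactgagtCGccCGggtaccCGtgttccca
In Gm46730 the peak runs from position -20 to 43, counted from 0 at the first base of the gene, and the window holds 7 CG in 300 bases at 52.7% GC. In Gm42031 the peak, chr8:85131744 to 85131808, covers positions 6 to 49 in the window and runs on into the gene past the window's edge. That window holds 16 CG at 56.7% GC.

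Long genes led by count. Igh, the immunoglobulin heavy chain locus, came first with 101 peaks (exact Poisson interval 82.3 to 123) over 2751 kb, and is described with the other receptor loci. Of the lncRNA genes, the predicted gene Gm1604a held the most, 83 (66.1 to 103) on chromosome 17 (7855073 to 8108015), of which 190 kb was eligible. Its span overlaps Tagap, a gene of T cell activation, and Rsph3a, and their bodies and flanks leave a gap in the map of its peaks. Gm31718 held 80 (63.4 to 99.6) in 104 kb on chromosome 8 (126804707 to 126908370), 22.3 kb from Tomm20. At 0.772 peaks per kb it was the densest of the 15 genes with the most.

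Lncpint, a lncRNA induced by p53, held 68 peaks (52.8 to 86.2) over 125 kb on chromosome 6 (31093563 to 31218474). Cut into 3 equal parts from the start, it held 17, 22 and 29 peaks. Morrbid, a lncRNA known to set the lifespan of short-lived myeloid cells through the neighbouring death gene Bcl2l11, held 67 (51.9 to 85.1) over 131 kb on chromosome 2 (128298663 to 128429351). Its 3 equal parts held 30, 26 and 11 from the start. The span of Bcl2l11 lies 136 kb away. Lncpint and Morrbid thus carried like numbers of peaks at 0.544 and 0.513 per kb, with Morrbid's fewest in its last part.

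Gm36287 held 63 peaks (48.4 to 80.6) in 90.7 kb on chromosome 12 (25139540 to 25230206), and its nearest coding gene, at 43.4 kb, is Id2, an inhibitor of helix-loop-helix factors in lymphoid and myeloid cells. 2610307P16Rik held 59 (44.9 to 76.1) spread over 425 kb on chromosome 13 (28460034 to 28885422), 63.5 kb from Sox4, a transcription factor that can drive leukaemia in mice. Pvt1, a lncRNA beside the oncogene Myc and a site of retroviral insertion in mouse lymphoma, held 58 (44.0 to 74.98) over 222 kb on chromosome 15 (62037986 to 62260215). Myc ends 47.6 kb before it. These 3 differ in density, at 0.695, 0.139 and 0.261 peaks per kb.

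Gm12216 held 48 peaks (35.4 to 63.6) in 73.8 kb, and lies between Irf1, an interferon regulatory factor, and Slc22a5, a carnitine transporter. Banf2os held 46 (33.7 to 61.4) and overlaps Banf2. Gm35551 held 42 (30.3 to 56.8) on chromosome 17, 100 kb from Zfp36l2, an RNA-binding protein needed by blood progenitors. Gm13986 held 41 and lies 0.674 kb from Thbs1, the gene of thrombospondin. Gm46414 held 40 between Nxnl2 and S1pr3, a sphingosine-1-phosphate receptor. Gm32543 held 39 (27.7 to 53.3) and lies 42.3 kb from Cited2, a transcription cofactor needed by blood stem cells. Their densities ran from 0.164 per kb in Gm13986 to 0.658 per kb in Gm35551.

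**Figure D5:**
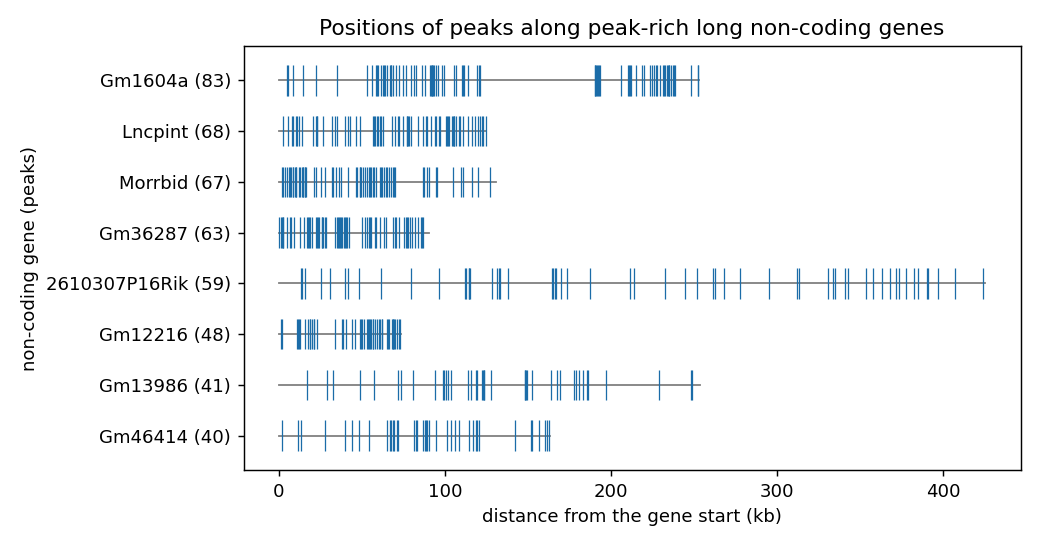
Peaks (blue ticks) along 8 lncRNA genes whose strand was known and that are among the 15 non-coding genes with the most peaks; the horizontal axis is the distance from the gene start (kb), grey lines are the gene spans and numbers in brackets count peaks. Morrbid has 30 of its 67 peaks in the first of 3 equal parts and 11 in the last, while the 59 peaks of 2610307P16Rik are spread over 425 kb.

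Assigned to the nearest coding gene, the peaks fell to 2552 genes, and 1342 of them to the 25 genes with the most. The 10 coding genes with the most are given in order. Id2 was nearest to 96 peaks, at a median distance of 107 kb and in 7 non-coding genes, with 63 in Gm36287 and 22 in Gm36723. Zfp36l2 was nearest to 86, with 42 in Gm35551 and 24 in Gm19696. Spdye4c was nearest to 80, of which 37 lay in Morrbid, while Bcl2l11 was nearest to 30 of the Morrbid peaks. Tomm20 was also nearest to 80, all of them in Gm31718. Jarid2, a Polycomb-associated factor, was nearest to 77 at a median of 184 kb, with 25 in Gm40931 and 24 in Gm34276. Uaca was nearest to 70, with 33 in Gm51680, and Zfp386 to 70, all of them in Igh. Myc was nearest to 58, all in Pvt1. Klf14, a Krüppel-like factor, was nearest to 54, with 52 in Lncpint, and Lmo4, a LIM-domain partner of transcription factors, to 49 in 10 non-coding genes. Nearness here is a position and says nothing of which gene a region acts on.

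The densest genes were short. Among genes with at least 5 peaks, Gm35398 had the most per kb, at 1.95. It spans 2.57 kb on chromosome 9 (122343030 to 122345595) and held 5. Its count has an exact Poisson interval of 1.62 to 11.7 peaks, so the order among these genes is not resolved. Gm34062 held 6 (1.63 per kb), Gm30381 5 (1.62 per kb), Gm41564 7 (1.57 per kb) and Gm46730 6 (1.54 per kb). Ighm, the constant region of the immunoglobulin mu chain, held 6 in 3.91 kb (1.54 per kb). Gm36171, which lies between Notch1 and Egfl7 on chromosome 2 (26547417 to 26555171), held 11 in 7.76 kb (1.42 per kb, count interval 5.49 to 19.7). Gm32803, beside the T cell gene Cd2, held 5, Gm11755 7 and Gm42031 5, at 1.36, 1.36 and 1.34 per kb.

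Non-coding genes that host microRNAs held a peak more often than the others but fewer peaks per Mb. Hosts were taken by position alone: the span of the gene holds a microRNA gene, on either strand. Mir6412 in Gm36284, Mir6417 in Gm40302, Mir5118 in Gm45968 and Mir129b in Mir670hg lie on the strand opposite to the gene. The gene's own transcript therefore does not carry that microRNA. Of 75 eligible host genes 40 held a peak (53.3%), against 31.6% of all eligible non-coding genes and 39.9% of lncRNA genes. Hosts are longer, with a median of 19.6 kb of eligible sequence against 8.73 kb for lncRNA genes. Hosts held 342 peaks in 6.56 Mb, or 52.1 per Mb, against 73.8 in other non-coding genes, a ratio of 0.706 (0.632 to 0.786). Igh, whose span holds 3 microRNA genes, makes up 2.73 Mb of the host sequence, and without it the ratio was 0.851 (0.746 to 0.967). Without all antigen receptor loci it was 0.829 (0.727 to 0.942). Eligible hosts and the microRNA genes in them made 121 pairs. Mir327, Mir193b and Mir365-1 lie in more than 1 host and count once for each. By their centres, the microRNA genes of the pairs lay a median of 9.32 kb from the nearest peak midpoint. In 48 pairs a peak lay within 5 kb. For scale, 35.9% of the 262 eligible microRNA genes had a peak within 5 kb, and not all microRNA genes of the pairs are eligible.

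After Igh and 2610307P16Rik, the host of Mir6368, Gm35853 held 20 peaks (12.2 to 30.9) on chromosome 15 (101358593 to 101405857). Its microRNA gene Mir1941 had 15 peaks within 5 kb, the nearest 0.047 kb from the centre of the hairpin. Gm36284, whose span holds Mir6412 on the opposite strand, held 16. Gm33742, host of the microRNA gene Gm51288, held 15. Gm40302 held 12 in 14.9 kb, with 10 of them within 5 kb of Mir6417, which is on the opposite strand, and 1 inside it. Lncppara, a host outside the rule for named genes and singled out after its values were seen, held 4 in 3.75 kb around Mirlet7c-2 and Mirlet7b. In Gm35853, Gm40302 and Lncppara a peak midpoint lay within 0.137 kb of the centre of each hairpin, while in Gm33742 the nearest was 5.10 kb away.

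Dleu2, the host of the miR-15a and miR-16-1 pair that is deleted in chronic lymphocytic leukaemia, held 12 peaks (6.20 to 21.0) in 64.5 kb on chromosome 14 (61602836 to 61682373). Of these, 10 lay in the first of 3 equal parts of the gene, 0 in the middle and 2 in the last. Its span of 79.5 kb overlaps Trim13 and Kcnrg, and the eligible sequence of each part was not computed. The centres of the Mir16-1 and Mir15a hairpins lay 4.53 and 4.67 kb from the nearest peak. The mature 5p sequences from RefSeq (GRCm38.p6) are shown with their seeds in capitals, because the pair shares 1 seed, AGCAGCA.
mmu-miR-15a-5p, chr14:61632075-61632096, minus strand: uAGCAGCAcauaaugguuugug
mmu-miR-16-5p, chr14:61631936-61631957, minus strand: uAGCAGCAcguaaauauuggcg
The remaining hosts named by the rule held 5 to 9 peaks each. Mir670hg, whose span holds Mir129-2, Mir129b and Mir670, held 7 in 102 kb, with the hairpins 9.58 to 17.4 kb from a peak. A930035F09Rik, host of Mir21c, held 6, and Gm31088, host of Mir145b, held 6. 6030407O03Rik, host of Mir6351, held 5, all in the first of 3 equal parts.

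Of 62 microRNA genes and hosts in a list drawn up for blood, 55 were in the gene table, and 23 of these were eligible. Whether each entry is expressed in blood was not checked. A peak of the set lay in 4 (17.4%, against 31.6% of all eligible non-coding genes): Mir181b-1 with 1, Mir100hg with 2 over 239 kb, Mir99ahg with 3 over 229 kb and Mir9-3hg with 1. The 23 are 15 microRNA genes, of which 1 held a peak (2.67% of all eligible microRNA genes did), and 8 lncRNA genes, of which 3 did (39.9% of all). Within 5 kb, 16 of the 23 had a peak: 9 of the 15 microRNA genes, against 35.9% of the 262 eligible ones, and 7 of the 8 lncRNA genes, against 56.8% of the 8290. The 9 are not independent, since neighbours share nearby peaks: Mir181a-1 with Mir181b-1, Mir29a with Mir29b-1, and Mir15a with Mir16-1. Neighbouring genes were not merged in either share. Mir193a had 10 peaks within 5 kb, Mir34a 7, and Mir29a and Mir29b-1, which lie together, 4 each. Mir17hg, the host of an oncogenic microRNA cluster, had 0 inside its 2.34 kb and 1 within 5 kb. Among those with 0 within 5 kb were Mir125b-1, Mir125b-2, Mir99a and Mirlet7c-1.

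A further 29 of these genes lay in or within 5 kb of a coding gene and so outside the set, and 23 of them had a peak within 5 kb. Mir150, a microRNA of mature lymphocytes, had 10, Mir126a, in an intron of Egfl7, had 8, and the cluster of Mir23a, Mir27a and Mir24-2 had 8. Mir21a had 6, Mir142, a microRNA of all blood lineages, 3, and Mir155 1. Of the microRNA genes in Hox clusters, Mir10a had 6, and Mir196b, Mir196a-2 and Mir10b had 0. Mir223, Mir221 and Mir222 are on chromosome X and were not counted.

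Of 43 long non-coding genes studied in blood, leukaemia or imprinting, 28 were eligible and 20 held a peak (71.4%, against 39.9% of eligible lncRNA genes). Their median was 1 peak, against 0 over all eligible genes. Gene length was not held equal in these comparisons. Over all lncRNA genes the share rose from 13.3% under 1 kb of eligible sequence to 48.3% at 20 to 50 kb. The 28 also include Terc, which is the telomerase RNA and not of the lncRNA class. Beside Lncpint, Morrbid and Pvt1, Trp53cor1, a p53 target also called lincRNA-p21, held 21 in 21.7 kb, and Neat1, the scaffold of nuclear paraspeckles, held 12 in 20.8 kb. Malat1, its neighbour on chromosome 19 and an abundant nuclear RNA, held 1 in 6.98 kb. Lncenc1 held 13 and Ifngas1, beside the interferon gamma gene, held 6. Snhg17, a host of small nucleolar RNAs, held 4.

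Of the imprinted non-coding genes, Airn held 9 in its 59.1 kb of eligible sequence, Meg3 3, H19 1, Rian 1 and Mirg 0. Kcnq1ot1 lies in a coding gene and so had no peak of the set, although 12 peaks lay in its span. Hotair and Hottip, of the Hoxc and Hoxa clusters, held 0 and had 0 within 5 kb. Ptgs2os2 held 0 with 3 within 5 kb, and Gm16685, Fendrr, Tug1 and Terc also held 0. The genes of this list differ in length, so these counts are not levels.

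Counted once each, peaks were sparser in the antigen receptor loci than in the whole set. Lines per Mb count an interval each time it is listed, and in Tcra, Tcrb and Tcrd they were above the value of the whole set. Igh held 37.0 per Mb of eligible sequence, Tcra 31.1 (54 peaks, 40.6 to 70.5), Tcrb 31.7 (15 peaks) and Igk 11.7 (37 peaks, 26.1 to 51.0). These densities of distinct peaks are below the 73.0 of the whole set. With repeated lines counted, Tcra held 78.2 lines per Mb, Tcrb 80.4 and Tcrd 93.8, above the 75.3 of the whole set, while Igh (58.7), Igk (17.7), Tcrg (45.8) and Igl (25.6) stayed below it. A repeated line is not a further peak, and no interval was computed for lines per Mb. The values of Tcrb and Tcrd rest on 38 and 20 lines. Tcrd lies wholly inside Tcra, so its 7 peaks and 20 lines are also counted in Tcra. Within Igh the peaks were uneven. The 171 kb with the constant regions and J segments held 22, or 129 per Mb, with a count interval of 13.8 to 33.3. The 149 kb from there to the first V segment held 2, and the 2431.5 kb with the V segments held 77, or 31.7 per Mb. Of single segments, Ighm held 6, Trac, the T cell receptor alpha constant region, 4 and Ighd 2. Repeated lines took Igh from 101 to 160 and Tcra from 54 to 136.

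Some long genes had no listed peak. 4930474G06Rik spans 438 kb on chromosome 18 (28560164 to 28998176), more than 1267 kb from the nearest coding gene. Gm29536 spans 433 kb on chromosome 1 and overlaps Kcne4, a potassium channel subunit. 4930500H12Rik spans 338 kb between Robo1 and Robo2, axon guidance receptors, Gm34196 332 kb on chromosome 13 and Gm26691 319 kb on chromosome 3, 86.9 kb from Cxxc4. For each, a count of 0 has an upper exact Poisson limit of 3.69 peaks.

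The width of peaks in non-coding genes ran from 49 to 81 bp between the quartiles, around a median of 65 bp. The median was also 65 bp in the reference (quartiles 49 and 85 bp) and in coding genes (49 and 81 bp), with many positions rounded to 8 bp. Peaks in non-coding genes lay a median of 1.17 kb from the nearest other peak, against 1.40 kb for the reference and 1.00 kb for peaks in coding genes. Another peak lay within 1 kb of 44.7% of them, against 39.1% and 50.1%. Peaks listed on more than 1 line made up 2.33% of the set (284 peaks), against 0.479% of the reference and 8.51% of peaks in coding genes.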

How the data were processed

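The series measured 5hmC capture by paired-end sequencing in 1 normal marrow and 2 NIDF-AML samples. Per the file headers, the authors called peaks with PICS from index 4 against index 5 or 6, for reads of 99 bp, fragments averaging 200 bp and windows of 250 bp. The deposited lists hold positions only, with no count, signal or score per peak. Per the submitters' processing notes the build is mm10, and the aligner's name was not given in the sources used here.

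Each interval was counted once, on autosomes. Starts were read as 0-based and are printed 1-based. Genes came from RefSeq on GRCm38.p6, and 328 models starting below 3 Mb, which lie on scaffolds, were left out. Densities use sequence between the first and last gene or peak of a chromosome, assembly gaps included. Pseudogenes stayed in the reference. Intervals are exact Poisson, Clopper-Pearson or conditional binomial intervals at 95%, computed with scipy 1.17.1 in Python 3.11.15, and no test between conditions was made. The code was checked on simulated peaks.

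Named genes were the 15 with the most peaks, the 10 densest with at least 5, up to 15 microRNA hosts with at least 3, the 5 longest without a peak, and 2 lists. Members, rules and lists were chosen with earlier results of these data known. Alternatives were repeated lines, other margins, overlap in place of midpoints, gene subsets, single autosomes, local references and either replicate left out.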

Additional observations from a re-analysis of the deposited data

How the results depend on the processing

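With 1 list and no replicate, depth is unknown and no stability over samples can be read. Leaving out either leukaemia sample gave the same values (12194 peaks, density ratio 1.97, share of genes 31.6%, hosts 0.706, distance held 1.85, gene ends 2.10, top 20 genes 8.82%), since the lists are identical; this says nothing about stability. No paired analysis was possible because the 2 numbered samples are of 1 group and hold 1 list.

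The density ratio to other sequence reversed to 0.894 with the reference kept within 20 kb of a non-coding gene and was 1.08 within 50 kb; with distance held it was 1.05 and 1.22. These references and the removal of antigen receptor loci were chosen after seeing the data. Counting repeated lines gave a ratio of 2.02, 0.848 for hosts, 1.89 with distance held and 10.0% (10.002%) in the top 20 genes. Margins of 0, 10 and 20 kb around coding genes gave ratios of 1.71, 2.12 and 2.33, with distance held 1.72, 1.93 and 2.03, and top 20 shares of 7.48%, 9.92% and 12.2%. Margins of 0 and 20 kb gave gene shares of 33.9% and 28.7% and end ratios of 2.28 and 2.00 (1.996). Without predicted gene models 960 peaks were left, with a ratio of 1.68, a gene share of 12.9%, hosts 0.561, distance held 2.13, gene ends 2.92 and 66.9% in the top 20 genes. Without Igh the host ratio was 0.851. Without receptor loci the ratio was 2.04, the gene share 32.8%, hosts 0.829, gene ends 2.01 and the top 20 share 8.23%.

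Within autosomes 1 to 7 the ratio was 2.12, 2.26, 1.93, 1.65, 2.20, 1.82 and 1.70. Within autosomes 9 to 18 it was 1.90, 1.89, 1.75, 2.14, 1.79, 1.75, 1.84, 2.28, 3.04 and 1.80. Counting peaks with at least 1 bp inside a gene moved no result beyond its interval. The cause of these shifts was not tested.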
